A study of Mus musculus with 2 samples.

Results

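The structural RNA genes described here are Rn7s1, Rn7s2, Rn7sk, Rmrp, Rpph1, Rny1, Rny3 and Terc, 8 of the 43346 genes in the gene tables. They were chosen by symbol, with results of these data already known, as RNAs that work without being translated and that are made largely by RNA polymerase III. The levels of these genes in the same 2 libraries were in view when they were chosen, so those levels and their differences are given as a description. RNA of newborn mouse forebrain (strain B6NCrl, postnatal day 0, sex not collected, no treatment named) was sequenced from an input of 13 pg, 1 cell-equivalent, in the size class above 200 nt. There were 2 libraries in 1 group, each from the whole forebrain of a separate pup, pup 1 (replicate 1) and pup 3 (replicate 2), while a single donor identifier is attached to both in the labels. The catalogue calls the assay single-cell, but the input was bulk tissue RNA at the amount of 1 cell. The design implies no contrast, and with 1 library per pup no test between pups is possible, so every difference below is a description without a p-value.

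These RNAs are core parts of ribonucleoprotein machines. 7SL RNA, encoded by Rn7s1 and Rn7s2, is the scaffold of the signal recognition particle (SRP), which brings ribosomes that make secreted and membrane proteins to the endoplasmic reticulum. 7SK RNA (Rn7sk) holds the elongation kinase P-TEFb in an inactive store, RNase P RNA (Rpph1) trims the leader from transfer RNA precursors, and RNase MRP RNA (Rmrp) acts in ribosomal RNA maturation. The Y RNAs (Rny1, Rny3) bind the Ro and La proteins, and Terc is the template of telomerase, made by RNA polymerase II. Mature forms of most of these RNAs have no poly(A) tail, whereas Smart-seq protocols usually start reverse transcription from an oligo(dT) primer.

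The 7SK and RNase P RNAs are shown first because both had reads, and because their sequences set how those reads can be assigned. They are GENCODE M21 transcripts on mm10, at most 300 bases of each, 5′ to 3′, and capitals mark the bases that lie in no 100-base stretch shared with another transcript of the tables. Rn7sk lies at chr9:78175303-78175633 on the minus strand and Rpph1 at chr14:50807449-50807767 on the minus strand. Of Rn7sk, bases 32 to 331 are printed, and of Rpph1, bases 1 to 300.
Rn7sk: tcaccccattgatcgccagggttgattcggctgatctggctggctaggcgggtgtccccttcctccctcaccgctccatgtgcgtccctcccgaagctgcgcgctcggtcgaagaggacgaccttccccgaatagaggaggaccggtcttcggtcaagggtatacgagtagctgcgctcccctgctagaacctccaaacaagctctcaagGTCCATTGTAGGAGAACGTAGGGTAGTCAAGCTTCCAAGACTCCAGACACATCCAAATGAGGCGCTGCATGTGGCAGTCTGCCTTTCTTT
Rpph1: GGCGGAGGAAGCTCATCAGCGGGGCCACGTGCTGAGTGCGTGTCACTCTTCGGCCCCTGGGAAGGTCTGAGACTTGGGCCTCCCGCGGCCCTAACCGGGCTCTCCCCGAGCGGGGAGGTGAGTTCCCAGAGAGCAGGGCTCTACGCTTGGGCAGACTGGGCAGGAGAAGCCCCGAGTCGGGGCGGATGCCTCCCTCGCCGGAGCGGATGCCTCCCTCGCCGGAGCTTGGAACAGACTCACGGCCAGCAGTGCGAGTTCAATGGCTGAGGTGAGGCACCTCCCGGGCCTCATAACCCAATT
The 2 7SL genes, on chromosome 12, had the same 300 bases, with 0 differences. All 201 positions at which a 100-base window fits into one 7SL gene are therefore found in the other.

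Near copies share stretches of the 7SL and 7SK genes. Rn7s6, a further 7SL gene, shares 74 of the 201 windows with the identical pair and Gm26461 shares 5. Rn7sk shares 142 of its 232 windows with Gm24447, 136 with Gm26315 and 10 with Gm26035, so that 90 windows and its last 90 bases are its own. Rpph1 shared no window with a listed transcript and had 220 of its own, although an M21 transcript of Ccnb1ip1 that is outside the tables holds 134 of them.

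The Y RNAs are shown because their length limits what could be counted at all. Rny1 (chr6:47788069-47788180, minus strand) is 112 bases and Rny3 (chr6:47781624-47781725, plus strand) is 102 bases long, and capitals mark the bases at which a 100-base window can start.
Rny1: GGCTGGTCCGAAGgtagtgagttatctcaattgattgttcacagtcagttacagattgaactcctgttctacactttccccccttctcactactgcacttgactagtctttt
Rny3: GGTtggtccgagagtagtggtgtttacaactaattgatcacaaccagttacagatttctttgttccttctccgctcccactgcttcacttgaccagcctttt
The deposited effective length, the number of positions at which a read can start, was the length minus 99 bases for all 8 genes. It was 13 for Rny1 and 3 for Rny3, against 172 for Rmrp, 201 for each 7SL gene, 220 for Rpph1, 232 for Rn7sk and 324 for Terc. Over all genes, 2218 had an effective length of 0 and could hold no read, among them all 22 mitochondrial transfer RNAs.

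**Figure D1:**
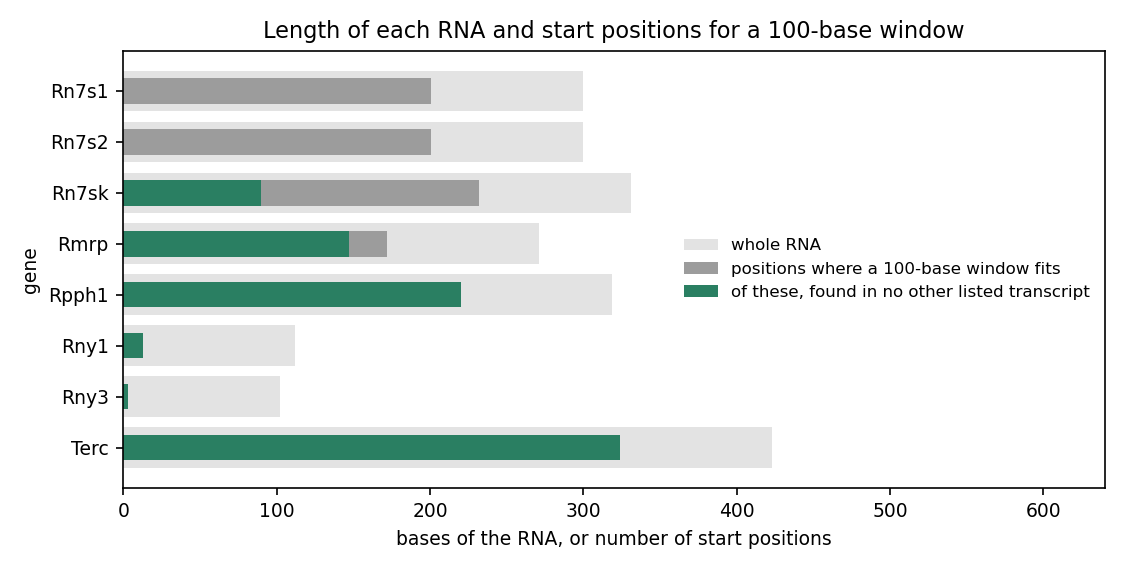
Length of each RNA in bases (light bars), number of positions at which a 100-base window fits (dark bars) and number of those windows found in no other listed transcript (green bars, drawn from 0 and not placed by position). Rn7s1 and Rn7s2 have 0 windows of their own, Rn7sk has 90 of 232, and Rny1 and Rny3 have 13 and 3.

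The 2 libraries held 41082811 reads in pup 1, against 29881397 reads in pup 3 over all features, in estimated reads that divide multi-mapped reads between features. ERCC spike-ins took 2.08% of reads in pup 1 and 4.09% in pup 3. At 1 TPM or above, pup 1 held 10096 genes, against 6960 genes for pup 3. The tissue label held: 9 of 9 markers of neurons, glia and telencephalon were found in both pups, from 9.05 to 6275 TPM, while Hoxa4 and Hoxc8 had 0 reads and Hoxa2 reached 0.02 TPM in pup 1. Of other cell types, 2 of 2 erythroid markers summed to 810 TPM in pup 1, against 1563 TPM in pup 3, and the choroid plexus marker Ttr was at 1724 and 1898 TPM. Their part in the values below was not tested.

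Levels are TPM, a length-corrected abundance with an equal total for every library. A gene was called found at 1 TPM or more. Of the 8 genes, 3 were found in both pups (Rn7s1, Rn7s2 and Rn7sk), beside 13.5% of all genes. In pup 1, 3 of 8 were found, beside 23.3% of all genes, and in pup 3, 4 of 8, beside 16.1%. Any signal was seen for 4 of 8, beside 32.1% of all genes. The other 4, Rmrp, Rny1, Rny3 and Terc, had 0 reads in both libraries. Each of these counts takes Rn7s1 and Rn7s2 as 2 genes, although they have the same bases and share the same reads. In pup 1 their deposited lower bounds were 0.786 and 0.00132 TPM, under the threshold, so neither is shown as found by itself. Nothing is read from the counts beside the shares of all genes.

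**Figure D2:**
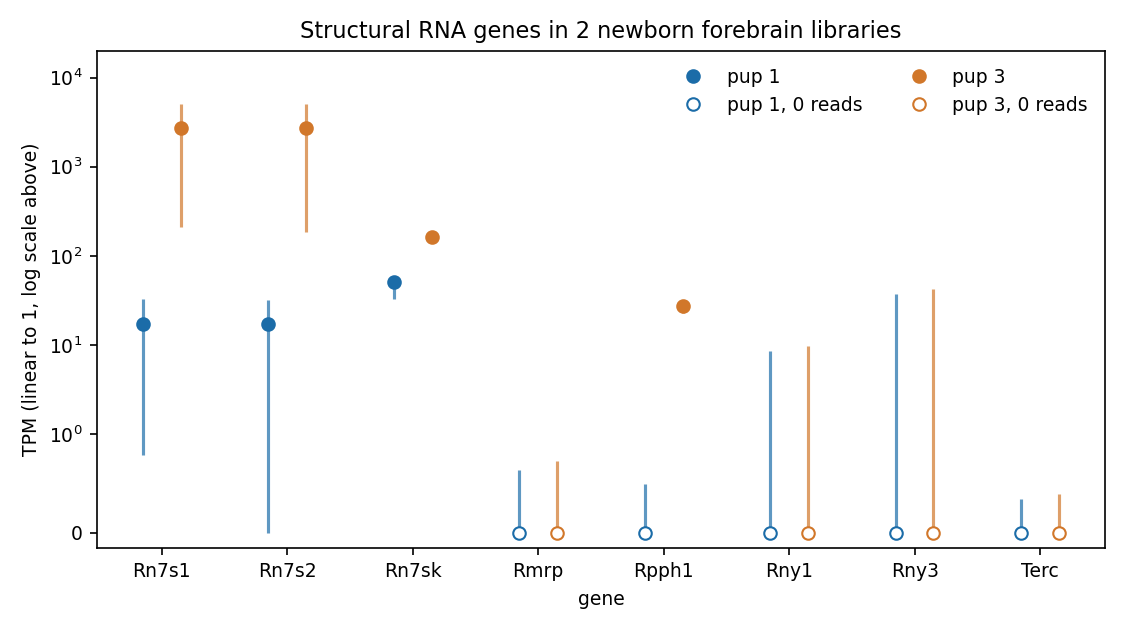
Deposited TPM of each gene in pup 1 (left, blue) and pup 3 (right, orange), on an axis that is linear to 1 TPM and logarithmic above. Vertical lines are the deposited credibility bounds, and open circles mark 0 reads. The bounds of the 2 7SL genes are wide in both pups, and the open circles of Rny3 carry upper bounds of 37.1 and 42.0 TPM.

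7SL RNA had a far lower level in pup 1 than in pup 3. Rn7s1 and Rn7s2 each had 92.5 reads and 17.3 TPM in pup 1, and 12569.5 reads and 2698 TPM in pup 3. The equal values of the copies are those of an even split of reads that no base can assign. The deposited credibility bounds show the same limit: 0.786 to 32.7 TPM for Rn7s1 and 0.00132 to 31.5 TPM for Rn7s2 in pup 1, and 210.4 to 5077 TPM for Rn7s1 and 185.6 to 5051 TPM for Rn7s2 in pup 3. Neither gene can be said to be the source of the reads, and the sum is the usable value.

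Summed, 7SL RNA had 185 reads in pup 1 (exact Poisson interval 159 to 214) and 25139 reads in pup 3 (24829 to 25452). That is 0.000450% of all reads in pup 1 (95% Clopper-Pearson interval 0.000388 to 0.000520) and 0.0841% in pup 3 (0.0831 to 0.0852). The intervals hold counting error alone: no molecular identifiers were available to separate molecules from PCR copies. In TPM the sum was 34.7 in pup 1 and 5397 in pup 3, a mean of 2716 ± 3792 (SD, n = 2), which is 156-fold lower in pup 1. In such bulk samples, fewer cells of a type, less RNA per cell and a technical difference between the libraries cannot be told apart.

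The place of 7SL RNA among all genes moved accordingly. Counted as 1 entry, the 7SL pair ranked at position 4020 in pup 1 and at position 13 in pup 3. Each copy alone stood at percentile 54.8 in pup 1 and 99.8 in pup 3 of the 13893 genes with any signal. Among the 123 genes at a mean of 1000 TPM or more, the 2 7SL genes had the largest differences between pups, with a log2 ratio of pup 1 to pup 3 of -7.20 each on log2(TPM + 1). They reach that mean only through pup 3, so their place in this set is a description. The next was Tubb2b, a beta-tubulin gene named after its values were seen, at 3050 TPM in pup 1, against 844 TPM in pup 3, a log2 ratio of 1.85. No protein-coding gene lay near the summed 7SL pair in level: the nearest in the plane of both libraries were Ppdpf, Emc8 and Pomp, at distances of 3.39, 3.47 and 3.53 log2 units. Ppdpf stood at 112 TPM in pup 1, against 697.5 TPM in pup 3.

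Near copies of 7SL RNA held few reads. Rn7s6 had 0 reads in pup 1 and 18.8 in pup 3, and Gm26461 had 0 and 17.2. With these copies added, the summed TPM was 34.7 in pup 1 and 5405 in pup 3, again 156-fold lower in pup 1. Rps29, a ribosomal protein gene that starts 108 bases from Rn7s1 on the other strand, was at 1004 TPM in pup 1, against 1668 TPM in pup 3. Nemf, the nearest gene to Rn7s2 at 4016 bases, was at 15.1 TPM in pup 1, against 24.6 TPM in pup 3. Both neighbours were higher in pup 3, each within 2-fold. The copies, with 0 reads in pup 1, were also higher in pup 3, and their few reads cannot show whether they differed as much as the 7SL pair.

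7SK RNA was the member with reads in both pups that had windows of its own. Rn7sk had 310.2 reads and 50.4 TPM in pup 1 (deposited bounds 32.4 to 54.9), and 882 reads and 164 TPM in pup 3 (148 to 170). These bounds hold uncertainty within 1 library and not the spread between pups. The mean of Rn7sk was 107 ± 80.4 TPM (SD, n = 2), with a level 3.26-fold lower in pup 1. Its log2 ratio of pup 1 to pup 3 was -1.68. Rn7sk stood at percentile 77.8 in pup 1 and 92.4 in pup 3.

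Part of the 7SK signal in pup 1 was shared with a copy. Gm26315 held 37.8 reads in pup 1 and 0 in pup 3, while Gm24447 and Gm26035 had 0 reads in both. The posterior mean of Rn7sk reads in pup 1 was 276 with a posterior SD of 32.4, and in pup 3 it was 874 with a posterior SD of 6.01. With the copies added, 7SK sequences had 348 reads and 56.8 TPM in pup 1 and 882 reads and 164 TPM in pup 3, 2.89-fold lower in pup 1. The protein-coding genes nearest to Rn7sk in level over both libraries were Hpf1 (51.5 TPM in pup 1, against 163 TPM in pup 3), Exosc10 (50.1 and 155) and Cox20 (50.5 and 154). Their distances from Rn7sk were 0.03, 0.08 and 0.09 log2 units. The neighbours of Rn7sk, on the other strand, were higher in pup 1. Ick, at 3195 bases, had 1064 reads in pup 1 and 0 in pup 3. C920006O11Rik, at 280 bases, had 8 reads in pup 1 and 0 in pup 3.

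The proportion of 7SL to 7SK RNA was different in the 2 libraries. Per length, the 7SL pair stood at 0.688 times the level of Rn7sk in pup 1 and at 32.9 times in pup 3. Of the reads of all 8 genes, 37.4% were 7SL in pup 1 and 96.1% in pup 3. Together the 8 genes had 495 reads and 85.1 TPM in pup 1, and 26161 reads and 5588 TPM in pup 3. Without the 7SL genes the other 6 had 50.4 TPM in pup 1, against 192 TPM in pup 3.

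RNase P RNA was seen in pup 3 alone. Rpph1 had 0 reads in pup 1, and 140 reads and 27.5 TPM in pup 3 (22.6 to 31.5). A count of 0 allows up to 3 reads, which for Rpph1 is 0.514 TPM in pup 1. Against that floor its TPM was at least 53.4-fold lower there. The floor holds counting error alone, since no molecular identifiers were available, and sets no limit on the difference in RNA level. Rpph1 overlaps Ccnb1ip1 by 284 bases on the same strand in the M21 annotation, and Ccnb1ip1 had 0 reads in both pups. Parp2, a DNA repair gene that starts 73 bases away on the other strand, was at 48.1 TPM in pup 1, against 73.7 TPM in pup 3. The related genes Rprl1, Rprl2 and Rprl3 had 0 reads in both.

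RNase MRP RNA and telomerase RNA were not seen in either library. For Rmrp (chr4:43492788-43493058, minus strand) 3 reads would be 0.657 TPM in pup 1, against 0.753 TPM in pup 3, and the deposited upper bounds were 0.637 and 0.732 TPM. Ccdc107, which overlaps Rmrp by 159 bases on the other strand, had 1520 reads and 81.0 TPM in pup 1 and 2439 reads and 147 TPM in pup 3. Their sequences share 25 of the 172 Rmrp windows, in reverse orientation, and the other 147 are in no other transcript of the tables. A second M21 gene named Rmrp, outside the tables, holds all 172. Whether counting used strand is not given in the labels, so reads in the overlap cannot be assigned. With 0 in both libraries, Rmrp has no nearest gene in level: 10059 protein-coding genes were also at 0 in both. Terc (chr3:96414437-96414859, minus strand), with the most start positions of the 8 genes, had upper bounds of 0.342 TPM in pup 1, against 0.389 TPM in pup 3.

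For the Y RNAs the same count of 0 says much less. For Rny1, 3 reads would be 8.70 TPM in pup 1, against 9.96 TPM in pup 3, and for Rny3 37.7 and 43.2 TPM. The deposited upper bounds were 8.51 and 9.76 TPM for Rny1 and 37.1 and 42.0 TPM for Rny3. At 1 read, Rny3 would already stand at 12.6 TPM in pup 1, against 14.4 TPM in pup 3. For Rny3, the 27.5 TPM of Rpph1 in pup 3 lies above the value of 1 read and below that of 3 reads. Both Y RNAs lie under the size class that the label gives for the input RNA.

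**Figure D3:**
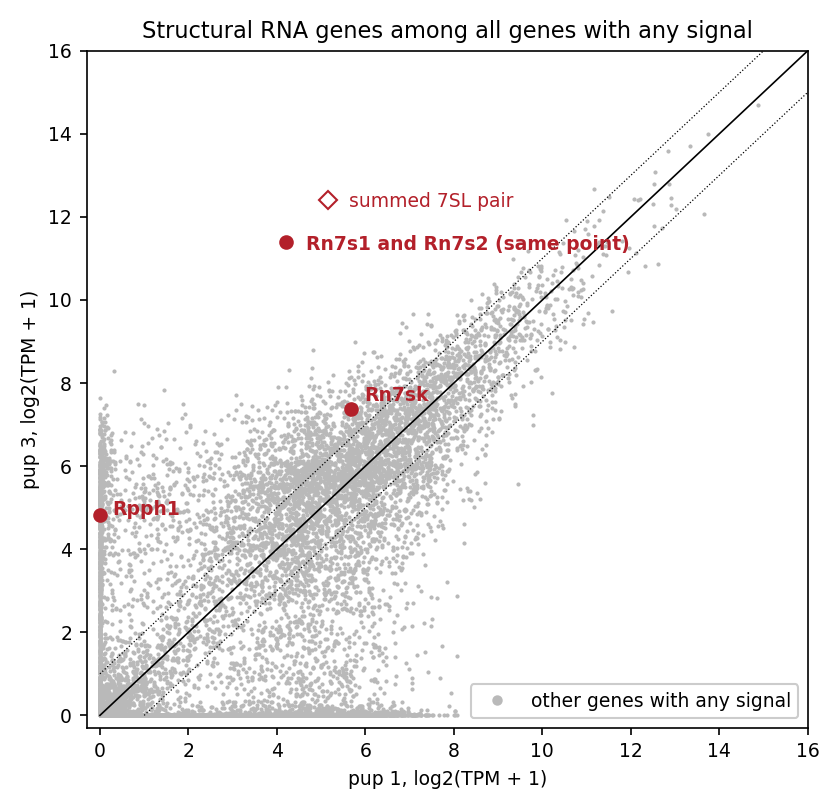
Level of every gene with any signal in pup 1 (x axis) and pup 3 (y axis), as log2(TPM + 1), with the structural RNA genes that had reads in red and the summed 7SL pair as an open diamond. The solid line marks equal levels and the dotted lines a 2-fold difference on this scale. The 7SL genes lie far above the line of equal levels, Rn7sk lies within the cloud, and Rpph1 lies on the axis of genes with 0 reads in pup 1.

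All differences past 2-fold ran in the direction of pup 3. Of the 8 genes, 4 were past 2-fold on the log2(TPM + 1) scale, beside 57.3% of the 13893 genes with any signal. All 4 were higher in pup 3, beside 18.3%, or 25.7% of genes at a mean of 10 TPM or more, and 0 were higher in pup 1, beside 39.0%. The 4 are Rn7s1, Rn7s2, Rn7sk and Rpph1, and the 2 7SL genes repeat the same reads. Nothing is read from this count, since Rpph1 had a signal only through pup 3 and 4 genes had no signal. When reads were scaled to ERCC reads, the log2 ratio of Rn7sk was -0.93, inside 2-fold, while the median of all genes was 0.86 in place of 0.31 on TPM.

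Base composition and simple runs are listed here for the genes with reads and for those without. GC content was 62.3% in the 7SL genes, 58.0% in Rn7sk and 67.1% in Rpph1, against 64.2% in Rmrp, 67.1% in Terc, 43.8% in Rny1 and 45.1% in Rny3. The longest run of A was 5 bases in Terc, 4 in the 7SL genes, 3 in Rn7sk and Rmrp and 2 in Rpph1, Rny1 and Rny3. Among the genes without reads, Rny1 and Rny3 have only 13 and 3 start positions, so their 0 reads say little here. Rny1 and Rny3 end in 4 T, Rn7sk in 3 and the 7SL genes in 2; a run of T is where RNA polymerase III stops. The aligned Y RNAs were 72.3% identical. The part of these features in the levels was not tested.

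Genes for the protein partners of 7SL RNA did not show its difference between pups. Of the SRP proteins and their receptor, 9 of 9 matched genes were found in both pups, beside 24.8% of protein-coding genes, and Srp54b was not analysed here. Srp14, part of the Alu domain of the particle, was at 484 TPM in pup 1, against 185 TPM in pup 3, and Srp54a, which binds the signal peptide, at 176 and 242 TPM. Srp19 had the largest ratio toward pup 1, with 128 TPM in pup 1, against 23.8 TPM in pup 3 (log2 ratio 2.38), and Srp9 the largest toward pup 3, with 87.7 and 159 TPM (-0.85). Of the 9 genes, 5 were 2-fold or more higher in pup 1, beside 42.8% of protein-coding genes with any signal, and 0 were in pup 3, beside 20.0%. The median log2 ratio was 1.38, beside 0.49 for protein-coding genes. Against Srp14 the summed 7SL level was 0.0716 times as high in pup 1 and 29.2 times as high in pup 3.

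Genes of the 7SK particle and P-TEFb were found in both pups in 6 of 7 cases, beside 24.8% of protein-coding genes. Hexim2 was at 69.8 TPM in pup 1, against 93.9 TPM in pup 3, Cdk9, the kinase of P-TEFb, at 29.3 and 94.7 TPM (log2 ratio -1.66, the lowest), and its cyclin partner gene Ccnt2 at 55.5 and 59.4 TPM. Larp7, which binds the 3′ end of 7SK RNA, was at 21.3 TPM in pup 1, against 1.07 TPM in pup 3 (3.43, the highest). Hexim1, for a P-TEFb inhibitor bound by 7SK RNA, had 0 reads in both. Of the 6 genes with any signal, 1 was past 2-fold toward pup 1, beside 42.8% of protein-coding genes, and 3 toward pup 3, beside 20.0%. Their median log2 ratio was -0.75, beside 0.49. Rn7sk stood at 1.72 times the level of Cdk9 in pup 1 and 1.73 times in pup 3. Against Ccnt2 it stood at 0.908 and 2.76 times, against Ccnt1 at 6.68 and 9.66 times, and against Larp7 at 2.36 and 153 times. Cdk9 has the log2 ratio between pups nearest to that of Rn7sk in this list.

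**Figure D4:**
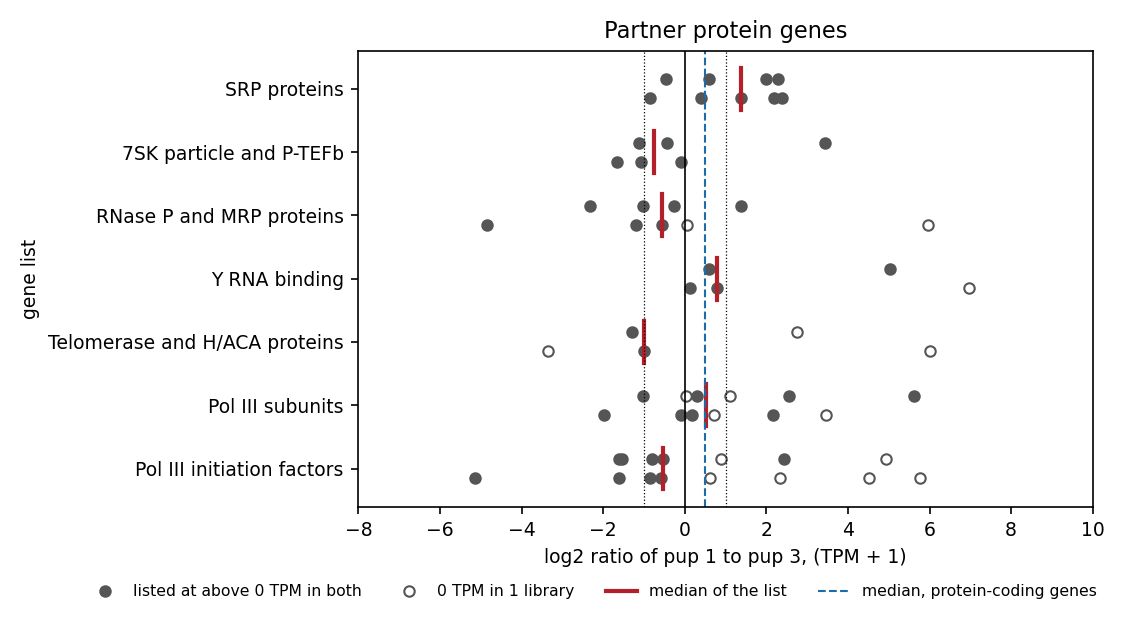
Log2 ratio of pup 1 to pup 3 on TPM + 1 for each partner protein gene with any signal, by list. Points right of 0 are higher in pup 1 and points left of 0 higher in pup 3; open circles had 0 TPM in 1 library, red bars are list medians, dotted lines mark 2-fold and the dashed line is the median of protein-coding genes (0.49). The SRP list lies mostly right of 0, with a median of 1.38.

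RNase P and RNase MRP share most of their proteins, and 7 of the 11 genes for these were found in both pups, beside 24.8% of protein-coding genes. Pop4 was at 56.2 TPM in pup 1, against 284 TPM in pup 3, and Pop7 at 109 and 222 TPM. Rpp14 had the largest ratio toward pup 3, with 1.28 TPM in pup 1, against 64.5 TPM in pup 3 (log2 ratio -4.85), and Rpp25l the largest toward pup 1, with 60.8 TPM in pup 1 and 0 reads in pup 3 (5.95). Pop1, the largest protein of both enzymes, and Rpp40 had 0 reads in both. Of the 9 genes with any signal, 2 were past 2-fold toward pup 1, beside 42.8% of protein-coding genes, and 4 toward pup 3, beside 20.0%. Their median log2 ratio was -0.57, beside 0.49.

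Of the Y RNA binding genes, Ssb, which encodes the La protein, was at 222 TPM in pup 1, against 205 TPM in pup 3. Trove2, the gene of the Ro protein, had 31.9 TPM in pup 1 and 1 read, 0.01 TPM, in pup 3. Puf60 was at 346 and 229 TPM, Ncl, which encodes nucleolin, at 166 and 95.4 TPM, and Ptbp1 at 124 TPM in pup 1 but at 0 reads in pup 3. Of the 5 genes, 3 were found in both pups, beside 24.8% of protein-coding genes. Past 2-fold were 2 genes toward pup 1, near the background of 42.8%, and 0 toward pup 3, beside 20.0%. Their median log2 ratio was 0.80, beside 0.49. Ro60 is a further name of Trove2 and matched no separate gene.

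Of 8 telomerase and H/ACA genes, 2 were found in both pups, near the 24.8% of protein-coding genes. Tert, the catalytic subunit, had 0 reads in both pups, as did Gar1 and Tep1. Nop10 was at 122 TPM in pup 1, against 301 TPM in pup 3 and Nhp2 at 104 and 208 TPM; both encode H/ACA proteins that also serve small nucleolar RNAs. Dkc1, for the pseudouridine synthase dyskerin, was at 63.0 TPM in pup 1 but at 0 reads in pup 3, and Wrap53 had 0 reads in pup 1 and 9.21 TPM in pup 3 (-3.35). The median log2 ratio of the 5 with any signal was -0.99, with 2 past 2-fold in each direction, beside 42.8% of protein-coding genes toward pup 1 and 20.0% toward pup 3.

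Of 13 genes for RNA polymerase III subunits, 4 were found in neither pup, 3 in pup 1 alone and the other 6 in both, beside 24.8% of protein-coding genes found in both. Polr1d, shared with RNA polymerase I, was at 173 TPM in pup 1, against 140 TPM in pup 3, and Polr3k at 131 and 139 TPM. Polr1c had the largest ratio toward pup 1, with 86.9 TPM in pup 1, against 0.78 TPM in pup 3 (log2 ratio 5.63), and Polr3c the largest toward pup 3, with 46.8 and 186 TPM (-1.97). Of the 12 with any signal, 5 were past 2-fold toward pup 1 and 2 toward pup 3, near the backgrounds of 42.8% and 20.0%, and the median log2 ratio of 0.51 was near that of protein-coding genes, 0.49.

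Of 18 initiation factor and regulator genes matched, 8 were found in both pups, beside 24.8% of protein-coding genes, and 5 in neither, and Gtf3c2 was not analysed here. Maf1, a repressor of RNA polymerase III, was at 62.2 TPM in pup 1, against 194 TPM in pup 3. Snapc2, of the complex that binds the upstream promoters of genes such as Rn7sk, was at 55.6 and 83.5 TPM. Snapc3 had the largest ratio toward pup 3, with 0.66 TPM in pup 1, against 57.4 TPM in pup 3 (log2 ratio -5.14), and Gtf3c5 the largest toward pup 1, with 53.5 TPM in pup 1 and 0 reads in pup 3 (5.77). Brf1, Brf2 and Pou2f1 had 0 reads in both pups. Of the 15 with any signal, 5 were past 2-fold toward pup 1, beside 42.8%, and 4 toward pup 3, beside 20.0%. Their median log2 ratio was -0.54, beside 0.49.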

How the data were processed

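RNA of 2 newborn forebrains was sequenced by a Smart-seq protocol after mirVana extraction, per the labels. The authors deposited, per the file headers, expected counts (estimated reads, multi-mapped reads shared out), TPM with a posterior mean and credibility bounds, and FPKM scaled by effective length; the bounds are deposited as a signal on the TPM scale. The assembly is mm10 and the annotation M4, per the deposited text files. Not given in the sources used here: aligner, counter and strand setting.

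Symbols, positions and sequences came from GENCODE M21, on the same assembly, by identifier without version, and 42462 genes (98.0%) matched. All 8 genes have 1 transcript, with equal reads in gene and transcript tables within 0.005 reads. Promoters of the 8 genes were not used here. The 7SL sequence is not reported here. Left out were 26249 entries with 0 reads: numeric names with no stated meaning and 1 phiX entry.

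The 2 libraries form 1 group, and the spread between them may be technical. The members and lists were chosen with earlier results of these data known. The design rule names all members, the 2 highest and the 2 most different genes of each partner list, all genes of lists of 6 or fewer, and the 3 protein-coding genes nearest in level. Of 74 partner symbols 71 matched. A difference was called at 2-fold on log2(TPM + 1). The floor for 0 reads was 3 reads, converted with the effective length; this equals 0.0730 CPM for pup 1, against 0.100 CPM for pup 3. TMM factors came from edgeR 4.0.16 and size factors from DESeq2 1.42.0 on expected counts rounded to whole numbers (11993 genes at 10 or more reads). The calculation of ratios and calls was run on simulated Poisson counts of well-covered genes, without dropout or amplification noise. That run checks the arithmetic and lends no support to the differences between pups. Calculations used R 4.3.3, scipy 1.17.1, pandas 2.3.3, Python 3.11.15, matplotlib 3.10.9 and numpy 2.4.6.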

Additional observations from a re-analysis of the deposited data

How the results depend on the processing

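The count of genes found in both pups was 3 at thresholds of 0.1 and 10 TPM, at 3 or more expected reads and on FPKM, and 5 on the posterior mean TPM, which adds Rny1 and Rny3, both at 0 reads. With 1 library left, 3 to 4 genes were found. The count past 2-fold was 4 in 7 of the 8 other settings and 3 when scaled to ERCC reads, which leaves Rn7sk out. Across settings the log2 ratio of pup 1 to pup 3 ran from -7.42 to -6.19 for each 7SL gene, from -1.93 to -0.93 for Rn7sk and from -8.11 to -2.16 for Rpph1, whose value depends on the pseudocount because pup 1 had 0 reads. None of these settings turned a direction. The summed level was 2837 TPM, and 85.1 to 5588 TPM with 1 library left. By expected counts in place of TPM, Rn7sk ranked at percentile 52.0 in place of 85.1, as reads are not divided by length. No paired analysis was possible because the 2 libraries form 1 group. Short length limits the counting of Rny1 and Rny3 most, with 13 and 3 start positions.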

Other observations

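Other small RNA classes held few reads beside 7SL RNA in pup 3, apart from mitochondrial ribosomal RNA. The 556 other miscellaneous RNA genes had 751 reads in pup 1, against 55.0 reads in pup 3. Those with the highest mean TPM were Gm27640 and Gm27517, both within the gene Tug1. They did not lead by reads in pup 3, where Gm27517 had 0 reads. The near copies of 7SL RNA, Rn7s6 (18.8 reads) and Gm26461 (17.2 reads), each had more reads there than Gm27640. Small nuclear RNA genes, 1383 in all, had 93.0 reads in pup 1 and 21 in pup 3, and the 41 small Cajal body RNA genes had 287 and 1. Of the 1484 small nucleolar RNA genes, 37 had reads in either pup and 6 in both, with 1565 reads in pup 1 and 554 in pup 3. In summed TPM the order of the pups was the opposite, 448 in pup 1 and 517 in pup 3. Snora65, overlapping Rpl12, was at 13.5 TPM in pup 1, against 72.4 TPM in pup 3 and Snora30 at 13.4 and 51.5 TPM. The 20 other ribozyme genes had 0 reads in both. The 353 genes annotated as nuclear ribosomal RNA had 1 read in pup 1, in Gm23956, and 0 in pup 3. This covers that annotated class alone and is no measure of all ribosomal RNA in the libraries.

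Overlap with other genes, on either strand, was looked up only for the 2 entries with the highest mean TPM in each class. Many of these overlap another gene, and Scarna13 and the mitochondrial ribosomal RNAs do not. The miRNA class had 1369 reads in pup 1 and 1328 in pup 3, of which 1249 and 1273 were in Gm22133. It is a 109-base entry overlapping Ftl1, with an effective length of 10 and a TPM of 4705 and 5494. Gm26049, the highest small nuclear RNA entry, overlaps Dcaf12 and reached 29.3 TPM in pup 1 from 7 reads. Gm23887, which overlaps Stk38, reached 26.3 TPM there, and both had 0 reads in pup 3. Among small Cajal body RNAs, Scarna13 was at 24.8 TPM and Gm25395 at 24.6 TPM in pup 1, with both listed at 0 in pup 3. Mir8097, overlapping Rnf19a, was at 20.3 TPM in pup 1, against 59.2 TPM in pup 3. The mitochondrial ribosomal RNAs were at 4310 TPM in pup 1, against 5544 TPM in pup 3 for mt-Rnr2 and at 673 and 1159 TPM for mt-Rnr1. The level of mt-Rnr2 was above that of the summed 7SL pair in both pups.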
